A study of Mus musculus with 9 samples.

Results

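Transcripts of 7 genes tied to the removal of nuclei and organelles from lens fiber cells were compared between *Atf4* null and wildtype lenses at E16.5. The genes were chosen by name, with earlier results of these data known. They were *Dnase2b*, *Birc7*, *Plaat3*, *Plaat1*, *Capn3*, *Bnip3l* and *Hopx*, and each matched 1 Ensembl gene among the 55416 that were counted. RNA came from the lens pair of single embryos, 4 *Atf4* null and 5 wildtype, all E16.5 and of both sexes. The null embryos were homozygous for *Atf4tm1Tow*, a germline allele in which a neomycin cassette replaces the coding exons, and the wildtype embryos were littermates from heterozygous intercrosses on a mixed C57Bl/6 and 129 background. Every cell of the null embryo therefore lacks ATF4, and the colony was not genotyped for the *Bfsp2* deletion that 129 mice can carry. Whole lenses were used, so epithelium and fiber cells were measured together, and a lower level cannot be assigned to fewer late fiber cells or to less RNA in each of them.

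As lens fiber cells mature, they degrade their nucleus, mitochondria and endoplasmic reticulum, which would otherwise scatter light. The DNA is cleared by DNase IIβ, an acid endonuclease that the lens expresses in place of its widely expressed relative DNase IIα. Organelle membranes are attacked by cytosolic phospholipases of the PLAAT family, and in several cell types mitochondria are marked for autophagy by the outer membrane receptor BNIP3L, also known as NIX. The transcription factor HSF4 is known to be needed for fiber denucleation and for *Dnase2b* expression.

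*Atf4* itself stood between 119 and 155 CPM in the wildtype libraries and between 0.582 and 10.6 CPM in the null libraries. CPM, the count scaled to a common library size, includes edgeR's TMM factors here. Each library held between 7440807 and 8906996 counts on genes. Null and wildtype libraries were tested against each other by the quasi-likelihood method of edgeR, with p-values adjusted over all 14903 genes that passed the filter on low counts. All 7 genes passed it. Wildtype replicate 5 stood apart. Skeletal muscle markers took 1.01% of its counts, against at most 0.018% in the other 8 libraries, and mesenchyme markers took 1.51% against at most 0.0586%. Markers of other tissues and of the lens epithelium also moved with genotype. All 9 retina markers had positive fold changes and 5 of them rose, their summed share lying between 0.0285% and 0.0957% in null and between 0.015% and 0.0262% in wildtype libraries. Of 8 lens epithelium markers, 6 fell. Without wildtype replicate 5, mesenchyme markers also differed, 6 of the 7 tested being higher and 1 lower in null lenses, with 2 of 4 pigment cell markers higher and 2 of 7 red blood cell markers lower. The part of these transcripts in the results below was not tested, except where values without wildtype replicate 5 are given. Fiber identity was clear in the data, with *Mip*, *Gja3*, *Bfsp1* and *Bfsp2* at 515.5 CPM or more in every library.

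*Dnase2b*, *Birc7*, *Capn3* and *Plaat3* fell in *Atf4* null lenses, by between 2.17-fold and 3.69-fold, and no null library reached the lowest wildtype library for any of them. *Hopx* was also lower on average but did not pass the threshold. *Bnip3l* and *Plaat1* did not pass it either. With a threshold of 0.05 on edgeR's adjusted p, 4 of the 7 genes were called lower and none higher, beside 3.67% of all genes tested that were called lower and 2.23% called higher. The median log2 fold change of the 7 genes was -1.12, beside 0.001 for all genes. The study already reports *Dnase2b*, *Birc7* and *Hopx* as lower in these data. The choice of genes was made with that known, so these shares describe the 7 genes and are no independent test. The 4 genes without overlap between the genotypes compare with 5.58% of all genes whose null libraries all lay below the wildtype libraries, and 4.65% with all of them above. Without wildtype replicate 5, *Hopx* passed as well and 5 of the 7 genes were called, beside 4.96% of all genes called lower, 3.37% called higher and 8.33% in either direction.

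**Figure D1:**
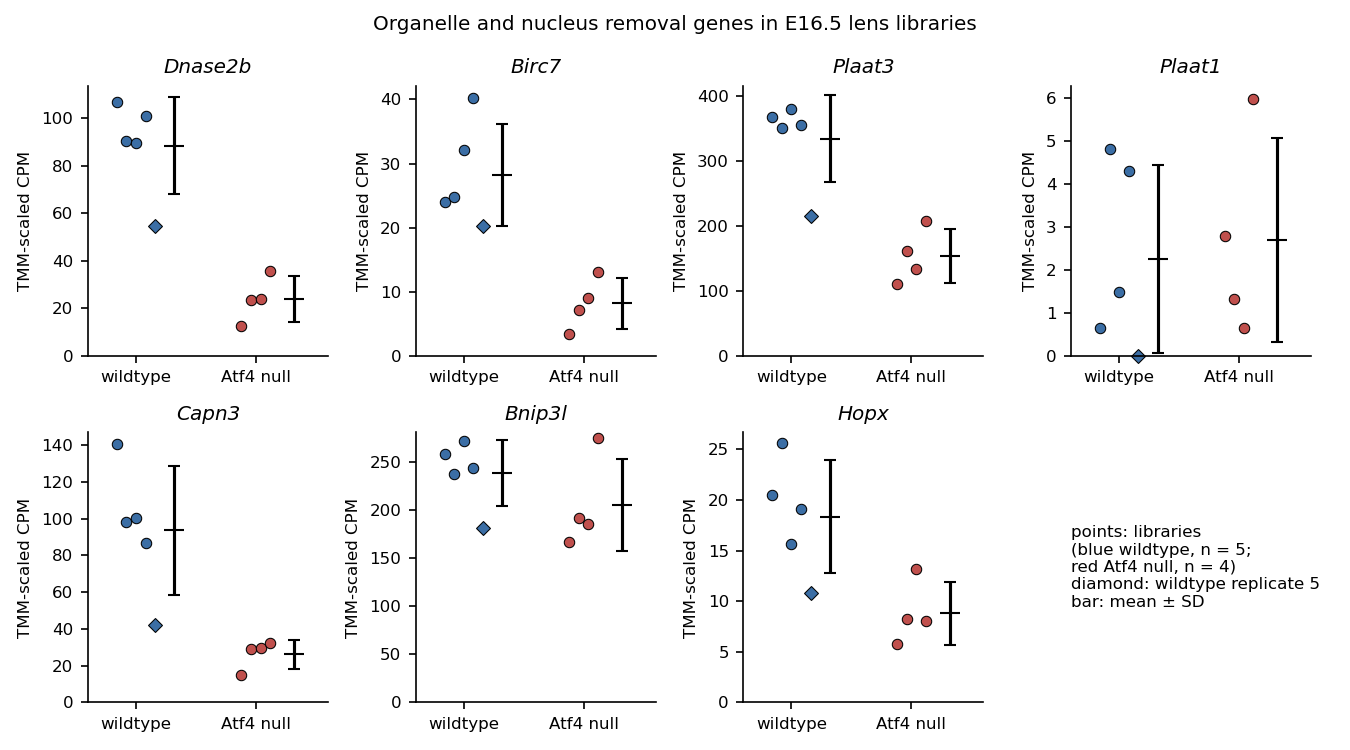
TMM-scaled CPM of each of the 7 genes, by genotype, with a point for each library and the mean with its SD beside the points. For *Dnase2b*, *Birc7*, *Plaat3* and *Capn3* the 4 null libraries lie below all 5 wildtype libraries. Wildtype replicate 5, the diamond, is the lowest wildtype library in every panel.

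*Dnase2b* (ENSMUSG00000028185, GRCm39 chromosome 3, 146286738 to 146321351, minus strand) encodes the nuclease that clears fiber cell DNA. Its levels in wildtype replicates 1 to 5 were 106.7, 90.6, 89.4, 101.0 and 54.5 CPM. In null replicates 1 to 4 they were 12.6, 23.5, 24.01 and 35.8 CPM. The highest null library thus stayed below the lowest wildtype library, which was replicate 5. The means were 88.4 ± 20.3 CPM (SD, n = 5) and 23.98 ± 9.5 CPM (SD, n = 4), a 3.69-fold difference. The fitted log2 change was -1.89 with a standard error of 0.27 and an adjusted p of 0.00115 in edgeR's test, and 281 of the 14903 genes had a value this low or lower. An exact two-sided permutation test over the libraries gave p = 0.0079, the smallest it can give with 4 against 5.

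Its relative *Dnase2a* is the lysosomal DNase of most tissues. Its level was low, with means of 5.23 ± 2.53 CPM (SD, n = 5) for wildtype and 5.91 ± 1.72 CPM (SD, n = 4) for null lenses. The log2 fold change of 0.17 had an adjusted p of 0.897 in edgeR's test, and its sign turned without null replicate 2 (-0.03) or wildtype replicate 4 (-0.07). Per exon length, wildtype *Dnase2b* stood at 28.8 FPKM and *Dnase2a* at 0.862 FPKM. The log2 ratio of *Dnase2b* to *Dnase2a* within a library was 4.17 ± 1.13 (SD, n = 5) in wildtype and 1.93 ± 0.56 (SD, n = 4) in null lenses. The ratio did not overlap between the genotypes (difference -2.24, exact permutation test, two-sided, p = 0.016, adjusted over 3 gene pairs 0.024). With any null library left out the adjusted exact permutation p was 0.0536. Of the 9 nucleases tested, *Dnase2b* was the 1 that passed the threshold, a share of 11.1% beside 5.9% of all genes.

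*Plaat3* (ENSMUSG00000060675, chromosome 19, 7534791 to 7569327, plus strand) encodes a phospholipase A and acyltransferase required for organelle breakdown in the mouse lens. It was measured at 367, 351, 379, 355 and 215 CPM in wildtype replicates 1 to 5. The null replicates had 110.3, 161, 134 and 207 CPM. Wildtype replicates 1 to 4 lay close together, and replicate 5 fell just above the highest null library. With means of 333 ± 66.9 CPM (SD, n = 5) and 153 ± 41.7 CPM (SD, n = 4), the log2 fold change was -1.12 (SE 0.20, edgeR adjusted p = 0.00474, exact permutation p = 0.016, two-sided). Without wildtype replicate 5 it was -1.24, with an edgeR adjusted p of 0.00013.

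*Plaat1* (ENSMUSG00000022525, chromosome 16, 29027718 to 29049284, plus strand) encodes a related phospholipase. Few reads were assigned to it. Wildtype replicates 1 to 5 had 5, 39, 12, 34 and 0 counts, and null replicates 1 to 4 had 28, 11, 6 and 41. The 0 counts of wildtype replicate 5 allow up to 0.321 CPM, taking 3 counts as the limit and covering counting error only. As CPM, the means were 2.25 ± 2.18 (SD, n = 5) and 2.68 ± 2.36 (SD, n = 4), and the genotypes overlapped, with null replicate 4 the highest and wildtype replicate 5 the lowest library. The log2 fold change of 0.25 had a standard error of 0.98 and an adjusted p of 0.931 in edgeR's test, a standard error close to the size of the change seen for *Plaat3*. Its sign depended on single libraries. Without wildtype replicate 5 it was -0.07, and without null replicate 4 it was -0.49. Wildtype levels per exon length were 33.9 FPKM for *Plaat3* and 0.199 FPKM for *Plaat1*. The log2 ratio of *Plaat1* to *Plaat3* was -7.74 ± 1.58 (SD, n = 5) in wildtype and -6.04 ± 1.08 (SD, n = 4) in null lenses, with overlapping libraries (exact permutation test, two-sided, p = 0.12). *Plaat5*, another family member, averaged 3.27 CPM in wildtype and 1.55 CPM in null lenses (edgeR adjusted p = 0.526).

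*Capn3* (ENSMUSG00000079110, chromosome 2, 120294048 to 120338450, plus strand) encodes a calcium-dependent protease best known from skeletal muscle, of which rodent lenses express splice forms of their own. The 5 wildtype libraries had 140.5, 98.4, 100.2, 86.6 and 42.3 CPM and the 4 null libraries 14.6, 28.8, 29.4 and 32.3 CPM. Wildtype replicate 5, the library with muscle transcripts, had the lowest wildtype level and still exceeded every null library. The means were 93.6 ± 35.1 CPM (SD, n = 5) and 26.3 ± 7.91 CPM (SD, n = 4), 3.56-fold apart. The log2 fold change was -1.83 (SE 0.31, edgeR adjusted p = 0.00325, exact permutation p = 0.016, two-sided). Leaving out wildtype replicate 5 moved it to -2.02.

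The *Capn3* counts cover only part of the gene. Of its 7387 exon bases in GENCODE vM39, 29.2% are shared on the same strand with *Gm52968*, a readthrough gene that runs into *Capn3*, and 56% are shared once *Zfp106* on the opposite strand is included. HTSeq assigns reads in shared bases to neither gene when it cannot separate them. Spread over all exon bases, wildtype *Capn3* stood at 12.7 ± 4.76 FPKM (SD, n = 5), and over the 3251 unshared bases at 28.8 ± 10.8 FPKM (SD, n = 5). *Gm52968* itself fell from 5.94 to 1.19 CPM (log2 fold change -2.31, edgeR adjusted p = 0.0326). *Zfp106*, at 302 CPM in wildtype and 382 CPM in null lenses, did not pass the threshold (log2 fold change 0.34, edgeR adjusted p = 0.117). The fold change of *Capn3* uses the same bases in every library.

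The ubiquitous calpains were measured for comparison. *Capn2* averaged 158 ± 15.8 CPM (SD, n = 5) among wildtype and 130.2 ± 23.4 CPM (SD, n = 4) among null libraries (log2 fold change -0.28, edgeR adjusted p = 0.27). *Capn1* was scarce and did not pass either (log2 fold change -1.20, edgeR adjusted p = 0.131). Among the other calpains, *Capn5* fell (-0.83, edgeR adjusted p = 0.0456) and *Capn7* rose (0.53, edgeR adjusted p = 0.0237). *Capn5* passed in 2 and *Capn7* in 3 of the 9 fits that left out a library, with log2 fold changes of -1.04 to -0.64 and 0.43 to 0.60 and edgeR adjusted p-values of at most 0.128 and 0.0691.

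*Birc7* (ENSMUSG00000038840, chromosome 2, 180570332 to 180575803, plus strand) encodes livin, an inhibitor of apoptosis protein that binds caspases, and is a marker of late fiber cells. Its wildtype levels were 24.01, 24.8, 32.1, 40.2 and 20.2 CPM, and its null levels 3.49, 7.20, 8.99 and 13.1 CPM, which did not overlap. The means of 28.3 ± 7.95 CPM (SD, n = 5) and 8.20 ± 4.00 CPM (SD, n = 4) differed 3.45-fold. A log2 fold change of -1.79 was fitted (SE 0.34, edgeR adjusted p = 0.00699, exact permutation p = 0.0079, two-sided). *Xiap*, the best known caspase-binding member of the family, averaged 59.3 ± 4.53 CPM (SD, n = 5) over wildtype and 60.8 ± 2.65 CPM (SD, n = 4) over null libraries (log2 fold change 0.04, SE 0.12, edgeR adjusted p = 0.918). Of 16 IAP proteins, caspases and their cofactors, *Birc7* alone passed the threshold, a share of 6.25% beside 5.9% of all genes.

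*Bnip3l* (ENSMUSG00000022051, chromosome 14, 67222678 to 67246356, minus strand) encodes the mitophagy receptor NIX and had 1595 to 2197 counts in each library. Wildtype replicates 1 to 5 stood at 258, 238, 271, 244 and 181 CPM. The null replicates stood at 167, 191, 186 and 275 CPM. The genotypes overlapped, since null replicate 4 was the highest and null replicate 1 the lowest of all 9 libraries. Means were 238 ± 34.5 CPM (SD, n = 5) and 205 ± 47.8 CPM (SD, n = 4), with a log2 fold change of -0.22 (SE 0.16, edgeR adjusted p = 0.508, exact permutation p = 0.23, two-sided). Red blood cells, which also use *Bnip3l* to lose their mitochondria, left few transcripts. Their 9 markers took between 0.0211% and 0.0263% of the counts in null and between 0.0215% and 0.0705% in wildtype libraries.

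Its homologue *Bnip3*, the other BH3-type mitophagy receptor, did fall. *Bnip3* averaged 54.5 ± 10.3 CPM (SD, n = 5) among wildtype libraries against 25.9 ± 0.987 CPM (SD, n = 4) among null libraries, without overlap (log2 fold change -1.07, SE 0.17, edgeR adjusted p = 0.002). The log2 ratio of *Bnip3l* to *Bnip3* was 2.13 ± 0.25 (SD, n = 5) in wildtype and 2.95 ± 0.36 (SD, n = 4) in null lenses. This ratio was higher in every null library than in any wildtype library (difference 0.81, exact permutation test, two-sided, p = 0.016, adjusted over 3 gene pairs 0.024). As for *Dnase2b*, the adjusted exact permutation p was 0.0536 with any null library left out.

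*Hopx* (ENSMUSG00000059325, chromosome 5, 77234831 to 77263022, minus strand) encodes a small homeodomain protein that does not bind DNA itself. It had between 55 and 208 counts in a library. Its levels were 20.5, 25.7, 15.7, 19.1 and 10.8 CPM in wildtype replicates 1 to 5 and 5.78, 8.28, 13.2 and 8.01 CPM in null replicates 1 to 4. The genotypes overlapped, because null replicate 3 was above wildtype replicate 5. The means of 18.4 ± 5.54 CPM (SD, n = 5) and 8.81 ± 3.11 CPM (SD, n = 4) gave a log2 fold change of -1.06 (SE 0.31), about as large as that of *Plaat3*, with an edgeR adjusted p of 0.0621 and an exact two-sided permutation p of 0.024. The call depended on the test and the libraries. With edgeR's exactTest the adjusted p was 0.0318, with DESeq2 it was 0.017, and the quasi-likelihood test gave 0.0161 without wildtype replicate 5 and 0.0424 without null replicate 3, against 0.0161 to 0.152 over all 18 alternatives. An antisense transcript, *Hopxos*, covers 38.9% of the *Hopx* exon bases and had 8 counts in the 9 libraries together.

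**Figure D2:**
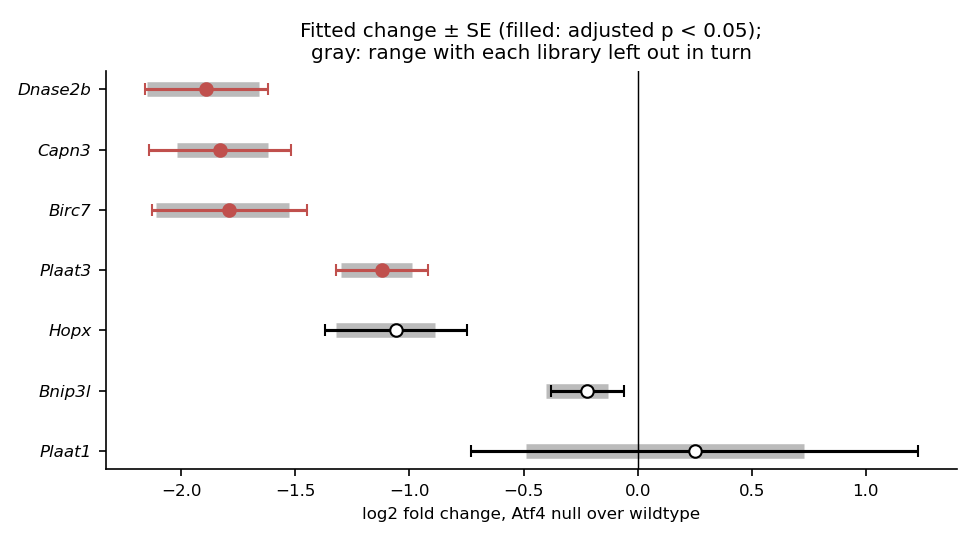
Fitted log2 fold change of each gene in *Atf4* null against wildtype lenses, with its standard error. Filled points passed an adjusted p of 0.05, and the gray bars give the range when each library was left out in turn. The bars of *Dnase2b*, *Capn3*, *Birc7* and *Plaat3* stay at or below -0.99, and the bar of *Plaat1* crosses 0.

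The 250 bases upstream of the outermost annotated start of the 4 genes that fell are shown because these genes moved together. They were read from the GRCm39 genome, 5′ to 3′ on the strand of the gene, and capitals mark a match to GAANNTTC, a pair of inverted heat shock factor units. They lie at chr3:146321352-146321601 (minus strand), chr2:180570082-180570331, chr19:7534541-7534790 and chr2:120293798-120294047.
Dnase2b: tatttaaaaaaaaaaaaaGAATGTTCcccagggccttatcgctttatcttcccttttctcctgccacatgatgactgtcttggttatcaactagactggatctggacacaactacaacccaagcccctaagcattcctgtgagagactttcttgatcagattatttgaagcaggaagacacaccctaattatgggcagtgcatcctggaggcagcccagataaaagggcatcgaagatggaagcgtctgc
Birc7: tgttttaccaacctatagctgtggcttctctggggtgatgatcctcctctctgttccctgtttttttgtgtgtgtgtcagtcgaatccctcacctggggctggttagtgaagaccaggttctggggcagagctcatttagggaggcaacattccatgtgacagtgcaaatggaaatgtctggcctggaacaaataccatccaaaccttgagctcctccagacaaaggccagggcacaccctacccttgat
Plaat3: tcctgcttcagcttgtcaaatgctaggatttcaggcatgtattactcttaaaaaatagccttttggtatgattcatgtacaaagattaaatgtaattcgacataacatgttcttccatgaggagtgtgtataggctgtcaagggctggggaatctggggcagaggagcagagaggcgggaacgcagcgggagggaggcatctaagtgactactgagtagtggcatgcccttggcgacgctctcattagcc
Capn3: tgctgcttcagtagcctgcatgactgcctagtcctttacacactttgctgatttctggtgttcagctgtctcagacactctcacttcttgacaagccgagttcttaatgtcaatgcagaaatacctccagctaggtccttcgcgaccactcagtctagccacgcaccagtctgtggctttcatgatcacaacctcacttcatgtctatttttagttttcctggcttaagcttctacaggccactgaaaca

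The match in *Dnase2b*, GAATGTTC, lies 232 to 225 bases before the start. No other window of the 7 genes held these letters, which occurred in 5.76% of the same windows of 14863 tested genes. The ATF4 element was searched as TGATGNAA and the half-site of MAF factors as TGCTGAC, all on both strands. Neither was found in a window of the 7 genes, while 2.39% and 2.99% of all windows held them. A match describes letters only, and starts used in the lens may differ from the annotated ones.

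By level per exon length, *Bnip3l* led in wildtype lenses at 43.3 ± 6.27 FPKM (SD, n = 5), followed by *Plaat3* at 33.9 ± 6.79 and *Dnase2b* at 28.8 ± 6.6. *Birc7* at 14.0 ± 3.93, *Capn3* at 12.7 ± 4.76 and *Hopx* at 8.27 ± 2.5 FPKM came next, and *Plaat1* was last at 0.199 ± 0.193 FPKM. The ranges of neighbours in this order overlapped, apart from those of *Hopx* and *Plaat1*. Within single libraries the order was steadier, *Bnip3l* exceeding *Plaat3* and *Plaat3* exceeding *Dnase2b* in 5 of 5 wildtype libraries. *Birc7* and *Capn3* kept their order in 3 of 5. By CPM, *Plaat3* exceeded *Bnip3l* in each wildtype library, with means of 333 and 238 CPM. That part of the order thus rests on the exon lengths, 9846 bases for *Plaat3* and 5504 for *Bnip3l*. Over bases unshared on either strand *Capn3* would stand at 28.8 FPKM, beside *Dnase2b*, and over bases unshared on its own strand at 17.9 ± 6.72 FPKM (SD, n = 5), between *Dnase2b* and *Birc7*. In null lenses *Bnip3l* still led, at 37.2 ± 8.68 FPKM (SD, n = 4), now without overlap with *Plaat3* at 15.6 ± 4.24. *Birc7*, *Hopx* and *Capn3* were then within 3.56 to 4.05 FPKM of each other and could not be ordered. Over bases shared with no gene on either strand, *Capn3* was at 8.09 FPKM and *Hopx* at 6.49 FPKM in null lenses, and *Hopx* at 13.5 FPKM in wildtype lenses, whereas over bases unshared on the same strand *Capn3* was at 5.02 FPKM in null lenses and *Hopx* kept its values. The places of *Capn3* and *Hopx* in this order therefore also depend on the length used.

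**Figure D3:**
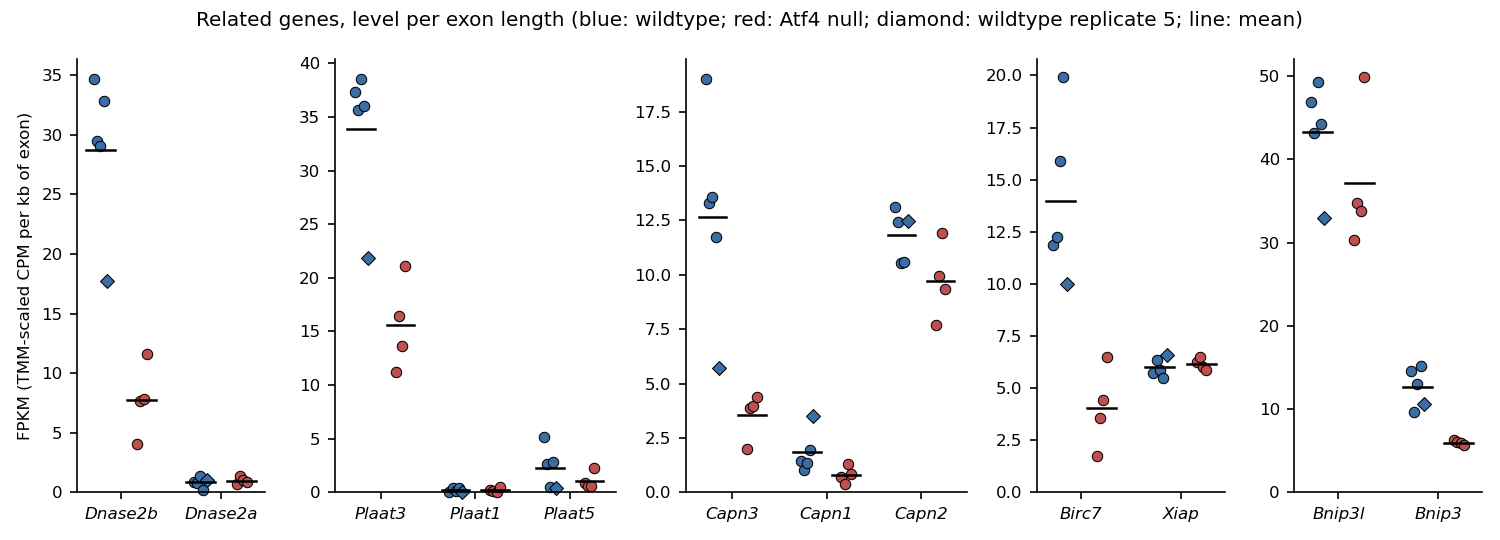
FPKM of the genes beside their relatives, a point for each library and a line at the mean, each panel with its own axis from 0. *Dnase2b*, *Plaat3*, *Capn3* and *Birc7* differ between genotypes while *Dnase2a*, *Capn2* and *Xiap* did not pass the threshold, and *Bnip3* differs where *Bnip3l* overlaps. *Capn1* and *Plaat5* did not pass either, though their log2 fold changes of -1.20 and -1.08 were about as large as the -1.12 of *Plaat3*.

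The libraries ranked alike across the genes. Wildtype replicate 5 had the lowest wildtype level of all 7. Among null libraries, replicate 1 was lowest for 6 of the 7 genes and replicate 4 highest for 6. Fiber structural genes had the same extremes. The summed share of 6 such genes, *Mip*, *Lim2*, *Bfsp1*, *Bfsp2* and *Gja3* among them, in the counts was 1.39% in wildtype replicate 5 and 2.08% to 2.33% in the other wildtype libraries. It was 1.08% in null replicate 1 and 1.95% in null replicate 4. The retina markers went the other way among null libraries, with their highest share, 0.0957%, in replicate 1 and their lowest, 0.0285%, in replicate 4. *Lim2* had 0 counts in all 9 libraries, and 99.4% of its exon bases are shared with a readthrough gene in the annotation.

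Each gene was therefore also expressed relative to these 6 fiber structural genes of the same library, as its log2 CPM minus their mean log2 CPM. Of the 5 that had counts, *Bfsp1* passed the threshold itself (log2 fold change -1.42, edgeR adjusted p = 0.00417), and the others did not, *Mip*, *Gja3* and *Bfsp2* being at -0.02, -0.14 and -0.47. The mean log2 level of all 6 genes, *Lim2* with its 0 counts included, was 9.38 ± 0.32 (SD, n = 5) in wildtype libraries. In null libraries it was 8.97 ± 0.43 (SD, n = 4; exact permutation test, two-sided, p = 0.14). On this relative scale *Dnase2b* varied little within genotypes, at -2.95 ± 0.10 (SD, n = 5) against -4.46 ± 0.21 (SD, n = 4). *Plaat3* stood at -1.03 ± 0.05 against -1.74 ± 0.11, *Capn3* at -2.93 ± 0.35 against -4.30 ± 0.25 and *Birc7* at -4.59 ± 0.32 against -6.03 ± 0.38. Wildtype replicate 5 lay within the range of the other wildtype libraries for *Birc7* and at its edge for *Dnase2b* and *Plaat3*. For *Capn3* it was the lowest by a margin, at -3.41 against -3.06 to -2.46 in the others.

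For these 4 genes the relative levels did not overlap between genotypes, with differences of -1.51 for *Dnase2b*, -1.44 for *Birc7*, -1.37 for *Capn3* and -0.72 for *Plaat3*. Each had an exact two-sided permutation p of 0.0079, the smallest that 4 against 5 libraries can give, or 0.014 adjusted over the 7 genes. With any 1 of wildtype replicates 1 to 4 left out, the adjusted exact permutation p was 0.05 and did not pass. *Hopx* differed by -0.63 (exact permutation p = 0.071, adjusted 0.10), and by -0.85 without null replicate 3 (adjusted exact permutation p = 0.025). The difference for *Plaat1* was 0.98 (exact permutation p = 0.34, adjusted 0.34). *Bnip3l*, at -1.50 ± 0.11 (SD, n = 5) in wildtype and -1.31 ± 0.17 (SD, n = 4) in null lenses, differed by 0.18 in the opposite direction to its fold change, which did not pass (exact permutation p = 0.087, adjusted 0.10). Without wildtype replicate 5 the difference for *Bnip3l* was 0.23 and passed (adjusted exact permutation p = 0.04), whereas with *Lim2* and *Bfsp1* left out of the reference it was 0.02 (adjusted exact permutation p = 0.817). Taking only the 5 reference genes with counts gave differences of -1.43, -1.36, -1.29 and -0.63 for *Dnase2b*, *Birc7*, *Capn3* and *Plaat3*.

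**Figure D4:**
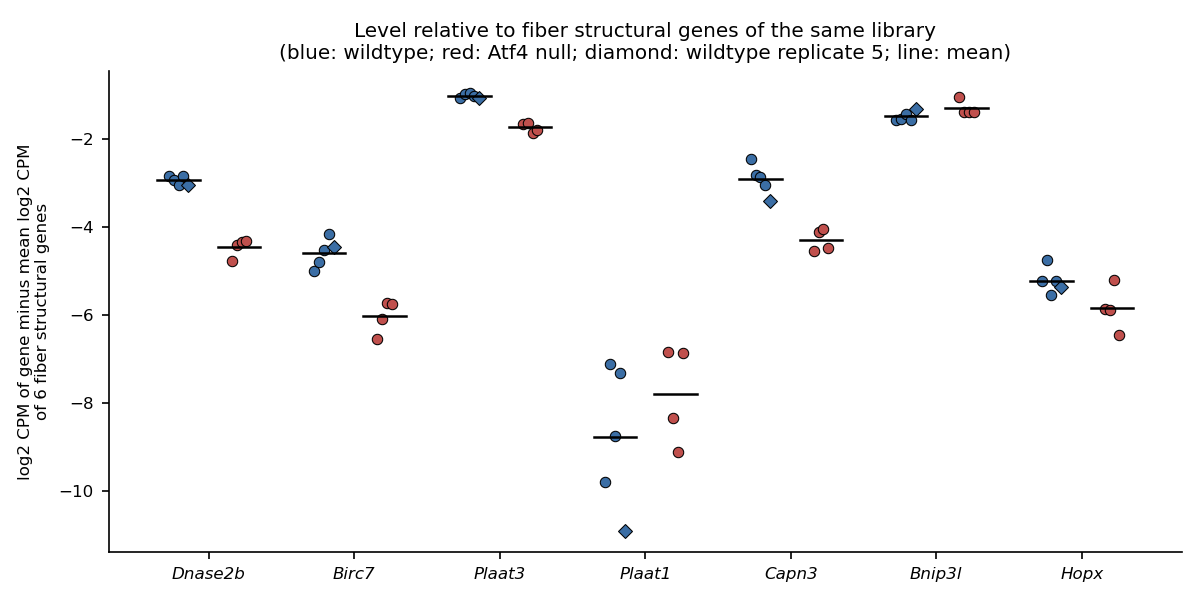
Level of each gene relative to 6 fiber structural genes of the same library, on a log2 scale, with a point for each library and a line at the mean. *Dnase2b* and *Plaat3* form tight groups that do not overlap between genotypes, wildtype replicate 5 included, whereas *Bnip3l* and *Hopx* overlap and *Plaat1* scatters.

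Other genes tied to nuclear and organelle breakdown were taken from 8 lists of 110 genes in all, of which 102 were tested. The lists also hold IAP proteins and caspases and regulators of late fiber differentiation, *Cdkn1c* and *Foxe3* among them. With the 7 genes left out, 95 were tested, 8 fell and 2 rose. These 10.5% compare with 5.9% of all genes tested that were called in either direction. The count depended on the libraries and the model. With sex as a covariate 5 were lower and 2 higher, 7.37% beside 4.71% of all genes. The count was 8 lower and 3 higher without wildtype replicate 5, or 11.8% beside 8.33% of all genes. Without null replicate 4 it was 7 lower and 1 higher, or 8.42% beside 5.43%. It was 4 lower and 1 higher without null replicate 2 or wildtype replicate 1, and 4 lower and 2 higher without wildtype replicate 4. The share was then 5.21%, 5.32% and 6.32%, beside 3.41%, 4.08% and 4.02% of all genes. Without null replicate 1 or 3 or wildtype replicate 2 or 3, 5 of them were lower. The share called in either direction was then 8.33%, 6.25%, 6.32% and 7.45%, beside 5.53%, 3.64%, 3.9% and 3.85% of all genes. With DESeq2 it was 11.6% beside 9.37%, and with library size alone 10.5% beside 8.25%. The median log2 fold change of the 95 genes was -0.06.

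Enzymes that act on membrane lipids were represented by *Pla2g4a*, a cytosolic phospholipase A2, which fell from 12.2 ± 2.65 CPM (SD, n = 5) to 4.92 ± 1.82 CPM (SD, n = 4) with a log2 fold change of -1.29 (edgeR adjusted p = 0.0417). *Alox12*, a lipoxygenase, fell from 16.52 ± 1.52 to 8.25 ± 2.2 CPM (edgeR adjusted p = 0.0301). *Pla2g4a* passed in 1 and *Alox12* in 2 of the 9 fits without a library, with edgeR adjusted p-values of 0.0317 to 0.108 and 0.0347 to 0.0743, while their log2 fold changes stayed between -1.47 and -1.07 and between -1.12 and -0.84. With sex as a covariate the edgeR adjusted p-values were 0.0631 and 0.0503. With *Plaat3*, 3 of the 9 tested genes of this list fell, or 33.3% beside 3.67% of all genes called lower. The log2 fold changes of the 9 ran from -1.29 to 0.89, and 6 were negative. *Alox15*, the lipoxygenase linked to organelle loss in reticulocytes, did not pass the filter on low counts.

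Among 14 mitophagy receptors and adaptors, *Bnip3* and *Bcl2l13* fell and *Sqstm1* rose, a share of 21.4% beside 5.9% of all genes. *Bcl2l13*, an outer mitochondrial membrane receptor, fell from 227 ± 57.2 to 114 ± 5.41 CPM (-0.99, edgeR adjusted p = 0.0052). *Sqstm1* encodes p62, which links ubiquitinated cargo to autophagosomes. It stood at 159, 252, 245 and 465 CPM in null replicates 1 to 4 and between 85.7 and 107 CPM in wildtype libraries (log2 fold change 1.54, SE 0.23, edgeR adjusted p = 0.00157). Null replicate 4 was the highest of all libraries for *Sqstm1*. For 6 of the 7 genes described it was the highest among null libraries.

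Of 17 genes of the autophagosome machinery, *Wipi1*, a phosphoinositide-binding protein of the forming autophagosome, was the 1 that passed, falling from 111 ± 19.6 to 67.9 ± 12.8 CPM (-0.71, edgeR adjusted p = 0.0199). This 1 of 17, or 5.88%, compares with 5.9% of all genes. *Wipi1* passed in 5 of the 9 fits without a library, with log2 fold changes of -0.80 to -0.58 and an edgeR adjusted p of at most 0.0579, where the log2 fold change was -0.73. The median of this list was 0.04. Of the 10 genes of the nuclear lamina and envelope 0 were called by edgeR's quasi-likelihood test, exactTest or DESeq2, 1 had an unadjusted p below 0.05 in the first, and their log2 fold changes ran from -0.27 to 0.44. Without wildtype replicate 5, 1 of the 10 rose. This was *Lmna*, which encodes lamins A and C, named after its values were seen, with a log2 fold change of 1.01 in place of 0.29. It stood at 169 CPM in wildtype replicate 5, the library with muscle and mesenchyme transcripts, between 35.5 and 46.5 CPM in the other wildtype libraries and between 56.4 and 92.5 CPM in null libraries.

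Regulators were examined last. *Cdkn1c*, which encodes the cell cycle inhibitor p57 of differentiating fiber cells, fell from 1642 ± 145 CPM (SD, n = 5) to 656 ± 131 CPM (SD, n = 4), a log2 fold change of -1.32 (edgeR adjusted p = 0.000182). *Foxe3*, a transcription factor of the lens epithelium, had a log2 fold change of -2.23 (edgeR adjusted p = 0.00347), and is 1 of the 6 lens epithelium markers that fell. *Cdkn1c*, *Foxe3*, *Bnip3*, *Bcl2l13* and *Sqstm1* passed in all 18 alternative fits. *Hsf4* stood at 208, 179, 178, 193 and 103 CPM in wildtype and at 81.4, 124, 108 and 212 CPM in null lenses. Its genotypes overlapped widely (log2 fold change -0.39, SE 0.25, edgeR adjusted p = 0.442). The value moved with single libraries, being -0.72 without null replicate 4 (edgeR adjusted p = 0.0664) and -0.21 without null replicate 1 (edgeR adjusted p = 0.709), and the lowest library of each genotype was again wildtype replicate 5 and null replicate 1. *Maf*, *Prox1*, *Sox1* and *Pax6* are further lens transcription factors among the regulators, *Pax6* also being 1 of the lens epithelium markers. Their log2 fold changes were 0.01, -0.25, 0.25 and -0.06, with edgeR adjusted p-values of 0.993, 0.657, 0.633 and 0.89. In all, 2 of the 17 regulators were called, beside 5.9% of all genes, and 14 had negative values, beside 7442 of all 14903 genes.

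**Figure D5:**
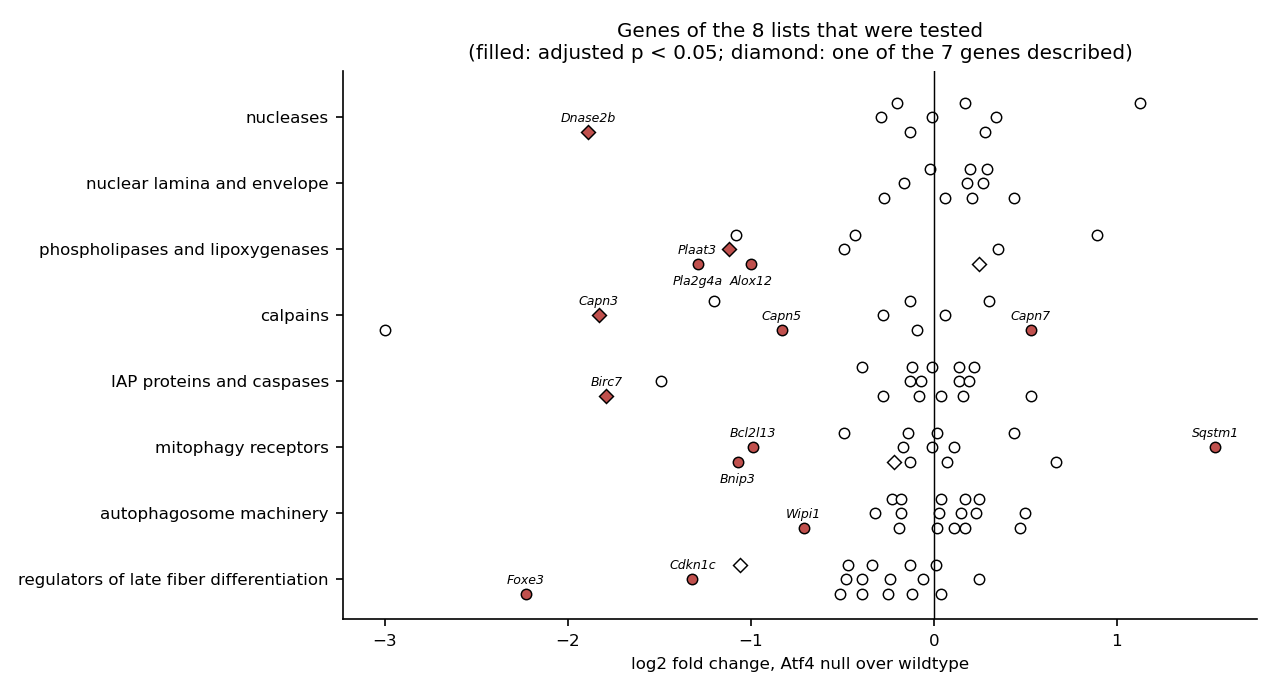
Log2 fold change of the 102 tested genes of the 8 lists, a point for each gene, with the 7 genes described as diamonds and filled points for an adjusted p below 0.05. Filled points lie mostly to the left of 0, *Capn7* and *Sqstm1* being those to the right, and the nuclear lamina list has none.

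The genes whose levels most resembled each of the 7 were found by Pearson correlation of log2 CPM over the 9 libraries, as a description that includes the difference between genotypes. *Plaat3* was closest to the fiber structural genes *Cryba4* (r = 0.995), *Bfsp1* (0.994) and *Crygb* (0.992). *Dnase2b* was closest to *Pygm*, the muscle form of glycogen phosphorylase (r = 0.996), followed by the noncoding *Sox1ot* (0.991) and *Gm43718* (0.989). *Capn3* was closest to *Wnt5b* (r = 0.993), *Lama1* (0.992) and *Dst* (0.991), which encode a WNT ligand, a laminin chain of basement membranes and dystonin. For *Birc7* they were *Tbcd* (r = 0.974), *Dad1* (0.974) and *Lgi2* (0.973). *Bnip3l* resembled *Ergic3* (r = 0.979) and *Tmed3* (0.978), of the early secretory pathway, and *Dnmbp* (0.975). *Hopx* was nearest to *Elovl6* (r = 0.975), *Efnb2* (0.974) and *Gm43570* (0.965). *Plaat1*, with few counts, had no gene above the r of 0.931 of *Foxi3*, the next being *Cradd* (0.917) and *Cycs* (0.903). A high r also follows from the common ranking of the libraries, whose cause was not tested. With genotype means removed, the r of these pairs ran from 0.89 to 0.984.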

How the data were processed

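Stranded libraries were made from whole-lens RNA, 1 for each of 9 embryos (E16.5, 4 of them *Atf4* null). The deposited values are raw counts per gene. The authors trimmed reads with Trim Galore, removed ribosomal RNA reads, aligned with HISAT2 to GRCm39 (Ensembl annotation) and counted with HTSeq, whose strand setting is not given in the sources used here. The sources name different RNA kits. HTSeq's 5 summary entries, 44.6% to 47.7% of reads, were left out. Gene counts ran from 7440807 to 8906996 per library. Reads shared between genes were not counted, and intervals from counts cover counting error only. No library repeated another (lowest chi-square per degree of freedom 7.7 over 36 pairs). Wildtype replicate numbers follow the sample titles, which name another wildtype library than the count data do, so they are uncertain, while the genotype is not.

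Symbols, positions and exon lengths came from GENCODE vM39, of the same build. Counts were fitted with edgeR 4.0.16 in R 4.3.3 (filterByExpr, TMM, glmQLFit, glmQLFTest, no covariate) and p-values adjusted by the Benjamini-Hochberg method over 14903 genes, with a threshold of 0.05. The study's own test, exactTest, was an alternative. Standard errors are the log2 fold change over the square root of F. FPKM are TMM-scaled CPM per kilobase of exon. Relative levels use log2 CPM with a prior count of 2 and exact permutation tests. Scripts ran in Python 3.11.15 and were tested on simulated data. Some single genes of the lists are not reported here. The p-values measure the spread between embryos. The litter of each embryo is not given, so litter was not modelled. Members, lists and rules were chosen with earlier results of these data known. Named were the 7 genes, *Atf4*, listed genes past the threshold, relatives of the 7 genes, *Hsf4* and the 3 genes most correlated with each. Lens transcription factors, *Lmna*, *Zfp106*, *Gm52968* and *Hopxos* were added after their values were seen. Alternatives were DESeq2 1.42.0, exactTest, a robust fit, library size alone, TMM without crystallins, other filters, sex as a covariate, the replicate block and each library left out.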

Additional observations from a re-analysis of the deposited data

Results flagged for a closer look

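In 34 sets of values, each of 1 genotype, a library was looked for whose gap to its nearest neighbour was large for the range of its group by Dixon's test, which chance gives in about 1 of 20. Wildtype replicate 5 stood apart for *Plaat3*, at 215 CPM against 350.6 to 379.2 CPM in the other wildtype libraries. This is the library with 1.01% of counts on muscle and 1.51% on mesenchyme markers. *Atf4* null replicate 1 stood apart for *Bnip3l* relative to the 6 fiber structural genes, at -1.06 against -1.40 in each of the other 3 null libraries. It is also the null library with the lowest share of fiber structural and the highest share of retina transcripts.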

How the results depend on the processing

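Over 18 alternative fits, *Dnase2b*, *Birc7*, *Plaat3* and *Capn3* stayed lower and past the threshold in each, with log2 fold changes from -2.15 to -1.66, -2.11 to -1.53, -1.30 to -0.99 and -2.03 to -1.62. The number of the 7 genes called lower was 4 or 5. *Bnip3l* ranged from -0.40 to -0.11 and never passed. *Hopx* stayed between -1.32 and -0.89 and passed with DESeq2 and exactTest and without a filter on low counts (each -1.06), without *Atf4* null replicate 3 and without wildtype replicate 5. With each library left out, it ran from -1.32 to -0.89. *Plaat1*, with few counts, never passed and ran from -0.49 to 1.19 over its 17 alternative fits, with the highest value under sex as a covariate, and from -0.49 to 0.73 with each library left out, being -0.49 without *Atf4* null replicate 4 and -0.07 without wildtype replicate 5. The cause was not tested. With at least 10 counts required in every library *Plaat1* could not be fitted. Over all genes, 547 were lower and 333 higher. DESeq2 called 835 and 562, scaling by library size alone called 439 and 790 and moved the median log2 fold change from 0.001 to 0.125, and leaving out a library gave 355 to 719 and 172 to 488. The count of lower genes was 355 without *Atf4* null replicate 2, and that of higher genes 172 without null replicate 2 or 3 and 186 to 210 without any of wildtype replicates 1 to 4. The listed genes called higher, 2 of 102, were 1 to 3 with a library left out, and 1 without null replicate 2, 3 or 4 or wildtype replicate 1 or 2. *Dnase2a*, which never passed, ran from -0.07 to 0.40 with each library left out and was -0.03 without null replicate 2 and -0.07 without wildtype replicate 4.

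The replicate numbers of the labels did not pair the libraries, as deviations of same-numbered libraries correlated by -0.131 to 0.008. With the replicate block, over the 8 libraries numbered 1 to 4, *Hopx* was at -1.24 with an edgeR adjusted p of 0.0399 and *Plaat1* at -0.13, while no other call among the 7 genes changed. Of the other listed genes, 5 were then lower and 2 higher (7.53% beside 6.02% of all genes), and *Pla2g4a*, *Alox12*, *Capn5* and *Capn7* did not pass (edgeR adjusted p = 0.0646, 0.0678, 0.0525 and 0.0558). This fit also leaves out wildtype replicate 5. *Capn5* did not pass with sex as a covariate (edgeR adjusted p = 0.0619), nor *Pla2g4a* with library size alone (0.0745) or without a filter on low counts (0.0502).

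Relative to fiber structural genes, differences with each library left out were -1.56 to -1.41 for *Dnase2b*, -1.54 to -1.27 for *Birc7*, -0.75 to -0.67 for *Plaat3*, -1.49 to -1.25 for *Capn3*, -0.85 to -0.43 for *Hopx* and 0.10 to 0.23 for *Bnip3l*. Without any of wildtype replicates 1 to 4 the adjusted exact permutation p of the first 4 was 0.05, from the smallest p that 4 against 4 libraries allow. Chosen after seeing the data, a reference without *Lim2* and *Bfsp1* gave -0.79 for *Hopx*, which then passed (adjusted exact permutation p = 0.0222), and 0.02 for *Bnip3l* (adjusted exact permutation p = 0.817), whose full range was 0.02 to 0.26. *Dnase2b* to *Dnase2a* ran from -2.52 to -1.79 and *Bnip3l* to *Bnip3* from 0.64 to 0.93, with adjusted p of at most 0.0536.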
